A study of Mus musculus with 2 samples.

Results

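Genes that p53 activates and genes that restrain the cell cycle, 10 in all, were described in macrophages given interleukin-4, either with a working RON kinase or lacking it. The 10 genes were taken by symbol from the 23444 gene symbols of the deposited tables. The rule uses no measured value, although the genes were proposed with earlier results of these data known. They are Cdkn1a, Cdkn1b, Mdm2, Ccng1, Btg2, Sesn1, Trp53inp1, Bax, Bbc3 and Pmaip1. The cells were bone marrow derived macrophages of FVB mice, grown in culture from marrow and given recombinant interleukin-4 at 10 ng/mL for 72 h in both groups. One group is WT and RON proficient, the other RON TK-/- and RON deficient, that is, without the tyrosine kinase of RON, the receptor encoded by Mst1r. There was 1 library in each group, so no test between the groups was run, no p-value exists, and "higher" and "lower" below compare 2 libraries and not 2 genotypes. Whether a library came from 1 mouse or from several was not given in the sources used here.

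The transcription factor p53 is held at a low level by the ubiquitin ligase Mdm2, which is itself a p53 target, so that the pair forms a negative feedback loop. When p53 is freed, it raises genes that stop the cell cycle, such as the cyclin-dependent kinase (CDK) inhibitor gene Cdkn1a, genes that limit growth and oxidative stress, and genes that open the mitochondrial path of cell death. Several of these genes also answer to other signals: Cdkn1a and Btg2 are induced by differentiation and inflammatory signals, and in macrophages Cdkn1a is known as a brake on proliferation and on activation.

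The labels were checked before any direction was read. FPKM counts fragments per transcript length and library depth, so levels can be compared between genes. Mst1r was listed at 0 FPKM in both libraries and so checked neither label. Genes of the response to interleukin-4 went against the label of the first library. Arg1 had 1.005 FPKM in the WT-labelled library and 5041 in the RON TK-/- labelled library, and Retnla and Chil3 were listed at 0 in the former. Mrc1 had 71.2 FPKM in the WT-labelled library and 1016 in the other, so it was lower in the former but not near 0. The inflammatory genes Nos2, Il1b and Tnf had 1100, 823 and 1262 FPKM in the WT-labelled library against 3.63, 0.20 and 0.52. An exchange of the labels and a difference between the cultures cannot be told apart here, and an exchange would turn the genotype direction of every ratio below. Every difference below moves together with this contrast in activation, and the part of activation in it was not tested. The macrophage genes Lyz2, Cd68, Csf1r and Adgre1 (listed as Emr1) were abundant in both libraries, with 3317, 746, 184 and 155 FPKM in the WT-labelled library. Of other macrophage markers, Itgam was higher and Mertk and Fcgr1 were lower by 2-fold or more in the RON TK-/- labelled library. Summed markers were at most 2.34 FPKM for granulocytes (6 genes found), 1.41 for dendritic cells (5), 0.37 for lymphoid cells (7), 0.09 for erythroid cells (5) and 0.74 for mast cells and eosinophils (5). Mpo, Elane, Cd3e, Cd3d and Epx were listed at 0 in both libraries. Of 5 stromal markers, 4 were detected and 1 of these, Pdgfra, was at least 2-fold higher in the RON TK-/- labelled library (8.93 against 24.3 FPKM). Col1a1 and Col1a2 had 195 and 407 FPKM in the WT-labelled library and 250 and 433 in the other, and the part of such RNA in the results was not tested. In bulk RNA fewer cells with a transcript and less transcript per cell cannot be told apart. Coverage implied 59800000 reads for the first library and 67200000 for the second.

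The 10 genes did not move as a block. Of 10 members, all of them detected (1 FPKM or more in at least 1 of the libraries), 3 were higher by 2-fold or more in the RON TK-/- labelled library (Sesn1, Trp53inp1 and Ccng1), 3 were lower by 2-fold or more (Btg2, Cdkn1a and Mdm2), and 4 were within 2-fold (Bbc3, Cdkn1b, Bax and Pmaip1). The ratio used throughout is log2 of (FPKM + 1) in the RON TK-/- labelled library over (FPKM + 1) in the WT-labelled library, a scale that understates differences of low genes. Among all 11288 detected genes, 25.6% were higher and 8.71% lower by 2-fold or more. The share of higher members, 30%, was thus near that of all genes, and the share of lower members, also 30% but of 10 genes only, was above it. The median ratio was 0.38 for the 10 members and 0.57 for all detected genes. Rescaled so that all detected genes had a median of 0, 8.38% of them were higher and 14.4% lower by 2-fold or more. On that scale 2 members were higher (Sesn1 and Trp53inp1) and 4 lower (Pmaip1 joined the other 3). Ccng1 lay within 2-fold, and the members' median became -0.18. Sesn1 and Trp53inp1 were below 1 FPKM in the WT-labelled library and counted as detected through the other one. Before rescaling, their ratios could therefore only be positive.

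**Figure D1:**
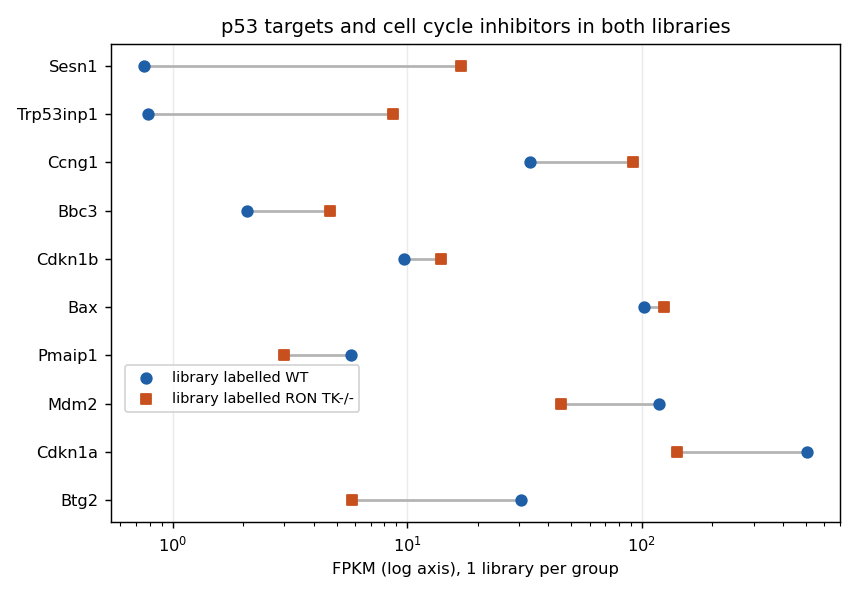
FPKM of the 10 genes on a log axis, 1 row per gene, in the WT-labelled library (circles) and the RON TK-/- labelled library (squares), ordered by ratio. Sesn1 and Trp53inp1 lie below 1 FPKM in the WT-labelled library, while Cdkn1a is the most abundant member in both libraries.

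Promoter sequences are shown for Cdkn1a, Sesn1 and Ccng1, for 2 reasons. Cdkn1a and Sesn1 each have 2 listed start sites whose transcripts differed between the libraries. Ccng1 and Cdkn1a hold the closest matches to the p53 binding site and, by FPKM summed per gene, lay on opposite sides of the comparison. The sequences are from RefSeq on build GRCm38.p6, the assembly of the mm10 build, and each ends before the annotated start, with bases inside exons of the same gene left out. They run 5′ to 3′ on the strand of the gene. Capitals mark a full p53 site (2 adjoining copies of the 10-base consensus, here called decamers, with at most 1 mismatch over 20 bases) or, where there is none, a single decamer without a mismatch.
Cdkn1a, upstream start (chr17:29090729-29090975, plus strand): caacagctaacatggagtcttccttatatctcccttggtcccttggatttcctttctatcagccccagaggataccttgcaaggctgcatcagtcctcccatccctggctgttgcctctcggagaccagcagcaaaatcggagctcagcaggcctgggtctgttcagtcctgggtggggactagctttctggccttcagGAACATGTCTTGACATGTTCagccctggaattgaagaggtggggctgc
Cdkn1a, downstream start (chr17:29093519-29093768, plus strand): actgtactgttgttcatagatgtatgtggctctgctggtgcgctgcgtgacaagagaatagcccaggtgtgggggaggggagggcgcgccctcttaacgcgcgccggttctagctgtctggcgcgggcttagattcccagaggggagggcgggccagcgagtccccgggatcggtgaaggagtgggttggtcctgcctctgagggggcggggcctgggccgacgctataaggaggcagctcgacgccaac
Sesn1, downstream start (chr10:41887189-41887438, plus strand): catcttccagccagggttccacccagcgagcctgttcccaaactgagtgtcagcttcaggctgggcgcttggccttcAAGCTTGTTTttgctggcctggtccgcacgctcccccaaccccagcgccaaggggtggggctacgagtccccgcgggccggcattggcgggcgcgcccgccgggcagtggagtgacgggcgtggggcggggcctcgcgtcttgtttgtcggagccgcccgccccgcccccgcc
Ccng1 (chr11:40755312-40755536, minus strand): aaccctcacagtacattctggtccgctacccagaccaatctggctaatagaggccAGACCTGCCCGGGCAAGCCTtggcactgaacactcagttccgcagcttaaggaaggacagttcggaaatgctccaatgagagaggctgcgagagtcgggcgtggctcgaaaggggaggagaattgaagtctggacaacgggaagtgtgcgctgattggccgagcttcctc

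The full site of Cdkn1a, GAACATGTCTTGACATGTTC, lies at chr17:29090928-29090947, outside the exons of the gene; its first base is 51 bases before the upstream start and 2841 bases before the downstream start. That of Ccng1, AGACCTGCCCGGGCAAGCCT, lies at chr11:40755462-40755481, outside the exons, with its first base 195 bases before the start. The decamer of Sesn1, AAGCTTGTTT, lies at chr10:41887266-41887275, 173 bases before the downstream start and in an intron of the longer transcript. For Cdkn1a the distances count from the RefSeq starts, which lie 7 (upstream) and 3 (downstream) bases before the starts of the deposited rows. The consensus is the same on both strands, so 1 strand was read, and a full site contains decamers. Among 32851 promoter windows of 250 bases, 0.0761% held a full site and 7.13% a decamer without a mismatch. For the members, 8 of 10 genes had an entry, with 12 windows. Of these windows 2 held a full site (Ccng1 and Cdkn1a) and 5 a decamer (Bax, Ccng1, Cdkn1a, Mdm2 and Sesn1). A match describes the letters of the window and is not a measured binding site. By FPKM summed per gene, the genes with a full site were on opposite sides. Ccng1 was among the 3 higher members and Cdkn1a among the 3 lower ones. The Cdkn1a site lies in the window of the upstream start, whose row was higher in the RON TK-/- labelled library (13.4 against 5.29 FPKM). The window of the downstream start, whose row was lower there, held neither a full site nor a decamer.

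The CDK inhibitors come first. Cdkn1a encodes p21, which blocks cyclin E and cyclin A kinases and binds the replication clamp PCNA. It lies on chromosome 17 from 29090986 to 29100722. It had 507 FPKM in the WT-labelled library and 142 in the RON TK-/- labelled library, a log2 ratio of -1.83 (3.56-fold lower), or -2.40 relative to the median of all genes. By level, Cdkn1a stood at percentile 98.9 of the detected genes in the WT-labelled library and at percentile 95.7 in the other, so it was abundant in both. Its ratio stood at percentile 4.62 of all detected genes. Cdkn1b encodes p27, the related inhibitor that holds cells in the resting state, and lies on chromosome 6 from 134920401 to 134925525. It had 9.72 FPKM in the WT-labelled library and 13.9 in the RON TK-/- labelled library, a log2 ratio of 0.48. This was within 2-fold, and its sign turned to -0.09 when all genes were centred on their median. The 2 inhibitors therefore differed in both level and ratio.

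The 2 transcript rows of Cdkn1a had opposite ratios. The row of the downstream start, NM_007669, had 502 FPKM in the WT-labelled library and 128 in the other, a log2 ratio of -1.96. The row of the upstream start, NM_001111099, had 5.29 and 13.4 FPKM, a log2 ratio of 1.20. The upstream row, whose start is the one next to the full p53 site shown above, made up 1.04% of the Cdkn1a FPKM in the WT-labelled library and 9.48% in the RON TK-/- labelled library. The starts of the deposited rows are 2786 bases apart and the transcripts differ by 26 bases in length. The rows thus share most of their sequence and the program had to divide most reads between them. The upstream row rests on about 614 and 1753 reads, estimated from the deposited coverage. An antisense gene model overlaps the downstream start in the GENCODE annotation, and strand use was not given in the sources used here.

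**Figure D2:**
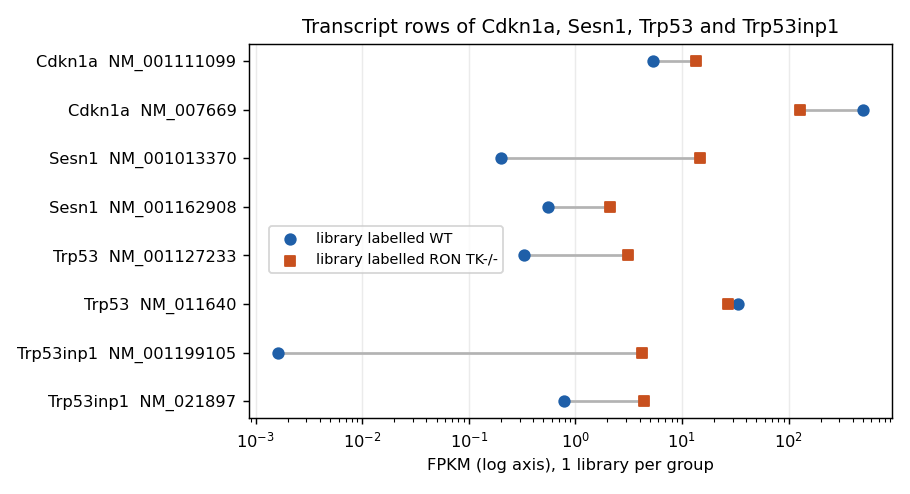
FPKM of single transcript rows on a log axis for the genes Cdkn1a, Sesn1, Trp53 and Trp53inp1, in the WT-labelled library (circles) and the RON TK-/- labelled library (squares). The Cdkn1a rows go in opposite directions (502 to 128 and 5.29 to 13.4 FPKM), and the lowest point is the Trp53inp1 row at 0.0016 FPKM in the WT-labelled library.

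Most other CDK inhibitors were higher before centring, unlike Cdkn1a. Cdkn2a, whose locus encodes the CDK4 inhibitor p16 and the Mdm2 inhibitor ARF, had 35.8 FPKM in the WT-labelled library and 68.5 in the RON TK-/- labelled library. Cdkn2b (p15) had 5.86 and 14.2, Cdkn2c (p18) 7.06 and 19.9, and Cdkn2d (p19) 15.0 and 32.2 FPKM. Of the 4 detected genes in this list of 5, 3 (75%) were at least 2-fold higher (Cdkn2b, Cdkn2c and Cdkn2d) and 0 lower. Their ratios ran from 0.91 to 1.37. Of all detected genes 25.6% were higher and 8.71% lower. After centring 0 of the 4 were higher and 0 lower, against 8.38% and 14.4% of all detected genes, so the counts depend on the scale. Cdkn1c, the third member of the Cdkn1 family, was not detected (0.67 and 0.22 FPKM).

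The feedback gene Mdm2 was lower. Mdm2, the ubiquitin ligase that marks p53 for destruction, lies on chromosome 10 from 117688905 to 117710716. It had 118 FPKM in the WT-labelled library and 45.4 in the RON TK-/- labelled library, a log2 ratio of -1.36 (2.57-fold lower), or -1.93 relative to the median of all genes. The transcription factor gene itself, Trp53, differed by less. It had 33.7 FPKM in the WT-labelled library and 29.96 in the RON TK-/- labelled library, a log2 ratio of -0.16. Mdm4, which binds p53 and pairs with Mdm2, had 6.38 and 11.0 FPKM, a log2 ratio of 0.70. Mdm2 was thus 18.6 times as abundant as Mdm4 in the WT-labelled library and 4.12 times as abundant in the other, by FPKM.

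The antiproliferative gene Btg2 had the lowest ratio of the 10 genes. Btg2 is an early response gene whose protein recruits the deadenylase complex that shortens mRNA tails, and it lies on chromosome 1 from 134074865 to 134079155. It had 30.4 FPKM in the WT-labelled library and 5.80 in the RON TK-/- labelled library, a log2 ratio of -2.21 (4.62-fold lower), at percentile 3.57 of all detected genes. Its relative Btg1 was lower as well, with 119 FPKM in the WT-labelled library and 28.3 in the other. The more distant relatives Tob1 (2.28 and 13.7 FPKM) and Tob2 (5.04 and 11.5) were at least 2-fold higher, so the family did not share a direction. Btg3 was near 0 and Btg4 was listed at 0 in both libraries.

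Ccng1 was higher and abundant. Ccng1 encodes cyclin G1, a p53 target that brings a phosphatase to Mdm2, and it lies on chromosome 11 from 40748552 to 40755286. It had 33.4 FPKM in the WT-labelled library and 91.3 in the RON TK-/- labelled library, a log2 ratio of 1.42 (2.68-fold higher). Relative to the median of all genes the ratio was 0.86, which is within 2-fold. Its relatives differed little: Ccng2 had 26.9 and 29.7 FPKM and Ccni 46.8 and 59.7.

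Sesn1 and Trp53inp1, 2 genes of the stress arm, were near the detection limit in the WT-labelled library and had the highest ratios. Sesn1 encodes sestrin 1, which restrains the growth kinase complex mTORC1 and oxidative stress, and lies on chromosome 10 from 41810574 to 41908436. It had 0.76 FPKM in the WT-labelled library (about 139 reads) and 16.9 in the RON TK-/- labelled library (about 3027 reads), a log2 ratio of 3.35 at percentile 99.4 of all detected genes. Without a pseudocount the log2 ratio was 4.49, so the 10.2-fold difference on the scale of FPKM + 1 is an understatement. Trp53inp1, whose protein joins p53 in nuclear bodies and also serves in autophagy, lies on chromosome 4 from 11156441 to 11174377. It had 0.78 FPKM in the WT-labelled library (about 262 reads) and 8.68 in the RON TK-/- labelled library (about 3172 reads), a log2 ratio of 2.44 (5.43-fold higher). By level Sesn1 stood at percentile 8.60 and Trp53inp1 at 8.89 of the detected genes in the WT-labelled library, and at 64.8 and 45.3 in the other. Of the 11288 detected genes, 9982 had 1 FPKM or more in the WT-labelled library. Both genes were below that there and counted as detected through the other library, so their low percentile follows from the filter. For the same reason their ratios among detected genes could only be positive. This limits their ratio percentiles and the count of 3 higher members, of which they are 2. Without a filter on low values 3 members were higher and 3 lower, as before.

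The Sesn1 difference lay mostly in 1 of its 2 transcript rows. The row of the downstream start shown above, NM_001013370, had 0.20 FPKM in the WT-labelled library and 14.8 in the RON TK-/- labelled library, about 31.6 and 2575 reads. The row of the upstream start, NM_001162908, which begins 76865 bases further upstream, had 0.56 and 2.14 FPKM. The downstream row made up 26.4% of the Sesn1 FPKM in the WT-labelled library and 87.4% in the RON TK-/- labelled library. The share in the WT-labelled library rests on few reads. For Trp53inp1 both rows share 1 start and differ by 38 bases in length. The longer row had 0.0016 FPKM in the WT-labelled library, which is under 1 read, and 4.23 in the other, while the shorter row had 0.78 and 4.45. With reads of 50 bases this split rests on the few reads that touch the differing exon, and only the sum was compared. Trp53 shows the same kind of split, with its longer row at 0.98% of the gene in the WT-labelled library and 10.4% in the other.

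The relatives of these genes did not all follow. Sesn2, a sestrin that also answers to amino acid stress, had 3.70 FPKM in the WT-labelled library and 14.0 in the RON TK-/- labelled library, a log2 ratio of 1.68. Sesn3 had 1.16 and 1.08 FPKM and Trp53inp2 16.5 and 19.96, both within 2-fold. In the list of 10 relatives, 8 were detected, 3 (37.5%) were at least 2-fold higher (Tob1, Sesn2 and Tob2) and 1 (12.5%) lower (Btg1). Of all detected genes 25.6% were higher and 8.71% lower. After centring, 2 relatives were higher and 1 lower, against 8.38% and 14.4% of all detected genes. The median of the relatives turned from 0.30 to -0.27.

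The 3 death genes were within 2-fold on the scale of FPKM + 1, and after centring Pmaip1 was lower. Bax, the effector that opens the mitochondrial outer membrane, lies on chromosome 7 from 45461695 to 45466898 and was abundant in both libraries. It had 102 FPKM in the WT-labelled library and 125 in the RON TK-/- labelled library, a log2 ratio of 0.29, and -0.28 relative to the median of all genes. Bbc3 and Pmaip1 encode the BH3-only proteins PUMA and NOXA, which neutralise the guardians of the BCL2 family. Bbc3, on chromosome 7 from 16309583 to 16318334, had 2.07 FPKM in the WT-labelled library and 4.69 in the RON TK-/- labelled library, about 242 and 626 reads, a log2 ratio of 0.89. With a pseudocount of 0.1 or with estimated reads scaled to library totals the Bbc3 ratio passed 2-fold. Pmaip1, on chromosome 18 from 66458604 to 66465558, had 5.74 FPKM in the WT-labelled library and 2.98 in the other, a log2 ratio of -0.76, and -1.33 relative to the median of all genes, which is past 2-fold. The 2 BH3-only genes thus had opposite signs at low levels, and neither difference reached 2-fold on the scale of FPKM + 1. Without a pseudocount the log2 ratio of Bbc3 was 1.18, past 2-fold, and that of Pmaip1 -0.95.

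**Figure D3:**
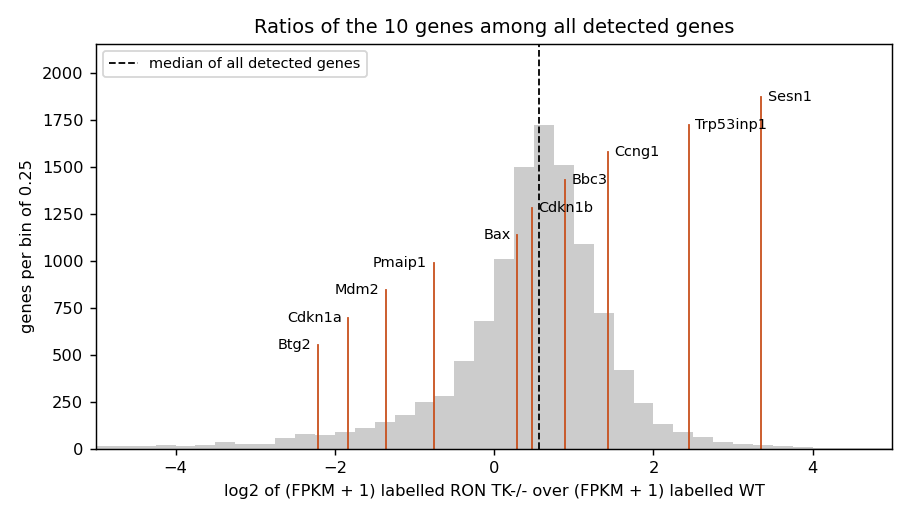
Histogram of the log2 ratio of all 11288 detected genes in bins of 0.25 (grey; 90 genes beyond -5 or 5 are not drawn), with the 10 members as lines whose heights only separate the names. The dashed line is the median of all detected genes, 0.57; Btg2, Cdkn1a, Mdm2 and Pmaip1 lie left of 0 and Sesn1 and Trp53inp1 in the right tail.

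Among other BCL2 family genes, 13 of 16 were detected, with 2 (15.4%) at least 2-fold higher and 5 (38.5%) lower. The shares of all detected genes were 25.6% and 8.71%. After centring 1 of the list was higher and 5 lower, against 8.38% and 14.4% of all detected genes. The 5 lower genes included survival genes. Bcl2a1a had 22.3 FPKM in the WT-labelled library and 1.05 in the other, and Bcl2a1d 110.7 and 12.1. The most abundant copy, Bcl2a1b, had 197.5 and 172.9 FPKM, a log2 ratio of -0.19, which is within 2-fold. The Bcl2a1 copies are nearly identical and reads can be split wrongly between them, so the calls of Bcl2a1a and Bcl2a1d depend on that split. Bcl2l1, which encodes the guardian BCL-XL, had 95.2 and 30.2 FPKM. The BH3-only gene Bcl2l11 (BIM) had 28.3 and 8.20 FPKM, and Bik 1.45 and 0.09. The 2 higher genes were the guardian Bcl2 (0.81 and 5.25 FPKM) and the BH3-only gene Bad (12.3 and 27.3). Both guardians and death genes therefore stood on each side. The median of this list was 0.20 without rescaling, -0.07 after scaling to the upper quartile and -0.36 after centring, so its sign depends on the scale.

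Beyond the 10 members, other p53 targets were higher more often than lower. Of 43 genes in the list, all detected, 21 (48.8%) were at least 2-fold higher and 5 (11.6%) lower, against 25.6% and 8.71% of all detected genes. The median ratio was 0.94, against 0.57 for all genes. After centring, 8 of the 43 were higher and 6 lower, against 8.38% and 14.4% of all detected genes. Perp, a membrane protein gene of p53-driven death, had the highest ratio, with 0.11 FPKM in the WT-labelled library and 8.96 in the other. Perp and other genes of the list below 1 FPKM in the WT-labelled library counted as detected through the other library. Their ratios could only be above 0, and the part of this filter in the counts was not tested. Triap1, which encodes a small mitochondrial survival protein, had 11.5 and 52.6 FPKM. The 5 lower genes were the death receptor gene Fas (59.5 and 10.5 FPKM), the autophagy gene Dram1 (90.5 and 20.7), the apoptosome gene Apaf1 (29.4 and 12.4), Ninj1, whose protein ruptures the membrane of dying cells (345.5 and 154.7), and the early response gene Ier5 (33.1 and 14.7). These 5 were at 29.4 FPKM or more in the WT-labelled library, as were the 3 lower members, Btg2, Cdkn1a and Mdm2. That limit is the value of Apaf1 and was not set beforehand. Other genes of the list above it were within 2-fold: Plk2 (45.4 and 40.4 FPKM), Pcna (227 and 184) and Rps27l (189 and 241). Of the members above it, Bax was within 2-fold and Ccng1 was higher.

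Genes that act on p53 were mostly within 2-fold. Of 24 listed, 22 were detected. Of these, 4 (18.2%) were at least 2-fold higher and 1 (4.55%) lower, against 25.6% and 8.71% of all detected genes. After centring 1 was higher and 2 lower, against 8.38% and 14.4% of all detected genes. The median was 0.48 without rescaling and -0.08 after centring. Chek2, the kinase that phosphorylates p53 after DNA breaks, had 1.59 FPKM in the WT-labelled library and 10.2 in the other. Ppm1d, the phosphatase WIP1 that ends the p53 response, had 0.56 and 3.52 FPKM, the p53 cofactor Ppp1r13b 0.96 and 3.57, and the DNA break sensor Trp53bp1 1.95 and 4.93. The lower gene was the deacetylase Sirt1, with 16.2 and 7.05 FPKM.

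On the inhibitors' targets the counts depend on the scale. Of 19 cyclin, CDK, RB and E2F genes, all detected, 9 (47.4%) were at least 2-fold higher and 1 (5.26%) lower, against 25.6% and 8.71% of all detected genes. After centring 3 of the 19 were higher and 3 lower, against 8.38% and 14.4% of all detected genes. The S phase cyclin gene Ccne1 had 1.73 FPKM in the WT-labelled library and 9.25 in the other, and its partner Cdk2, the kinase that p21 and p27 inhibit, 4.08 and 16.7. E2f2 had 0.09 and 3.15 FPKM. The gene lower by 2-fold was Cdk6, with 19.97 and 5.49 FPKM. Of 8 genes for the destruction of p27 and p21, 4 (50%) were at least 2-fold higher and 0 lower (2 and 0 after centring). These were Skp2, the subunit that recognises p27 (0.70 and 5.41 FPKM), Dtl, which leads p21 to destruction in S phase (0.37 and 3.47), Fbxw7 (2.81 and 10.2) and Cul4a (14.4 and 33.7).

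FOXO transcription factors are known to activate sestrin genes, which p53 also activates, and Cdkn1b. Of 14 FOXO genes and targets, 13 were detected, 4 (30.8%) were at least 2-fold higher and 1 (7.69%) lower. This was close to the shares of all detected genes, 25.6% and 8.71%. After centring 1 was higher and 2 lower, against 8.38% and 14.4% of all detected genes. The median turned from 0.53 to -0.04. The transcription factor Klf2 had 5.57 FPKM in the WT-labelled library and 25.5 in the other, Foxo3 2.23 and 8.02, the insulin receptor gene Insr 0.87 and 3.94 and Irs2 1.34 and 4.52. The lower gene was Bcl2l11, given above.

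**Figure D4:**
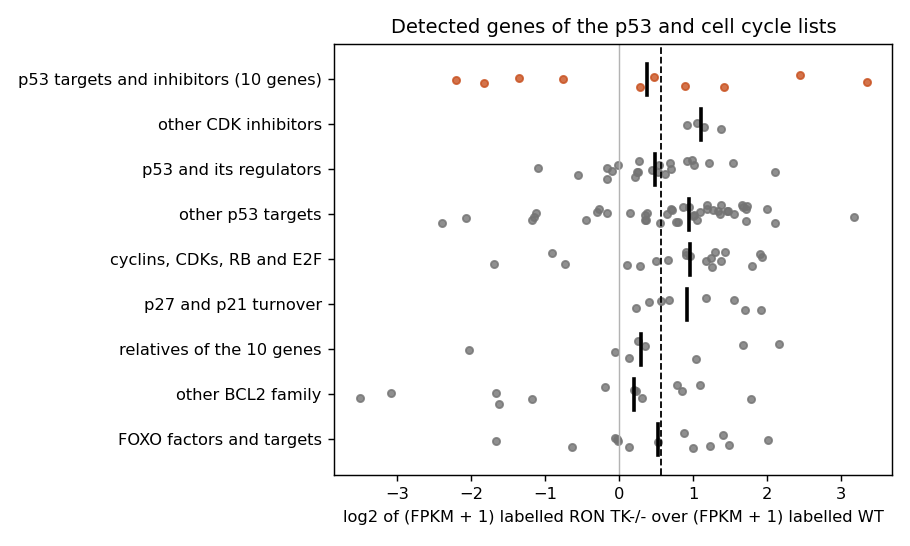
Log2 ratio of every detected gene (points) by list, with the list median (black bar), the median of all detected genes (dashed line, 0.57) and 0 (grey line); vertical scatter within a list has no meaning. The 10 members spread from -2.21 to 3.35, while the 4 other CDK inhibitors lie between 0.91 and 1.37.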

How the data were processed

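RNA was measured in 2 libraries, 1 per group, as single reads of 50 bases from TruSeq libraries of TRIZOL RNA, per the labels. The authors deposited FPKM values per RefSeq transcript with the column names of Cufflinks output, per the file headers. Coverage, also deposited, is the mean read depth per base. Per the submitters' processing notes, mm10 and DESeq were used in a role not stated, and the aligner was not given in the sources used here.

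FPKM was summed over the rows of a symbol. Reads per row were estimated as coverage times length over 50, and are not counts, so no count test was run. The pseudocount was 1, detection was 1 FPKM in either library, and 2-fold was the threshold. Files count starts from 0, and they are printed from 1. With Python 3.11.15 and pandas 2.3.3, calls were tested on simulated data. That test checks the computation only and says nothing of the spread between libraries. Of 198 list entries 1 was not found and 3 were found under older symbols. Named are all members, Trp53, Mdm4, all CDK inhibitors and relatives, up to 4 detected genes per other list by absolute ratio, those that complete a count of 5 or fewer, and the label check genes. Bcl2a1b, Plk2, Pcna and Rps27l are named for contrast. Cell type markers were named from their values. Promoter windows were chosen after the values were seen, and members and lists with earlier results of these data known. Alternatives, 11 in all, are in the closing section.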

Additional observations from a re-analysis of the deposited data

How the results depend on the processing

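No paired analysis was possible because each group had 1 library, and for the same reason no library could be left out and no batch compared. The count of 3 lower members became 1 (Btg2) at a 4-fold threshold, where 4.10% of all detected genes were lower. The count of 3 higher members lay between 2 and 4 under all 11 alternatives, but the share of all genes moved as well. It was 48.9% at 1.5-fold, 34.8% with a pseudocount of 0.1 and 30.6% with estimated reads, where 4 members were higher. It was 8.38% after centring and 3.71% at 4-fold, where 2 members were higher. The median ratio of the members, 0.38, was 0.29 with a minimum of 5 FPKM, which dropped Bbc3, 0.11 after scaling to the upper quartile and -0.18 after centring on the median of all genes; that last sign followed from subtracting 0.57. Under the 9 alternatives to the scale, filter or rows, Cdkn1a lay between -2.40 and -1.80, Mdm2 between -1.93 and -1.29, Btg2 between -2.77 and -1.71, Sesn1 between 1.93 and 4.32, Trp53inp1 between 1.24 and 3.31 and Ccng1 between 0.86 and 1.45. Cdkn1b and Bax changed sign under 1 of them, centring. For low genes the pseudocount set the size: Sesn1 had 4.32 with 0.1 and 1.93 with 5. Read estimates limit Sesn1 and Trp53inp1 in the WT-labelled library, and spread between cultures is not known.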
